A study of Homo sapiens with 6 samples.

Results

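The genes of the proteasome were compared between a gefitinib-sensitive lung adenocarcinoma line and a gefitinib-resistant line derived from it. They were chosen by name as the subunits of the 20S core, the immuno-subunits, the 19S regulator with its assembly chaperones and the PA28 and PA200 activators, 41 genes in all. Every probe set annotated to 1 of these genes alone was used, which gave 68 of the 54613 probe sets tested and 36 of the 19775 genes. PSMA6, PSMC5, PSMD7, PSMD13 and PSME2 had no probe set of their own by this rule and were not analysed here.

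PC9 is a human lung adenocarcinoma cell line that is sensitive to gefitinib, an inhibitor of the EGFR tyrosine kinase. PC9/gef was selected from PC9 by continuous exposure to rising gefitinib concentrations, and its samples are labelled as long-term gefitinib treated. Each line was measured on 3 arrays of total RNA, which the labels call biological replicates, and both lines grew in the same serum-containing medium. Whether PC9/gef is 1 clone, and whether gefitinib was in the medium at harvest, is not given in the sources used here. Any effect of the drug itself and the selected state of the line cannot be told apart.

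Values are log2 expression values, from 1.65 to 15.72 with a median of 2.55. Background was set at 2.65, below which 95% of 135 probe sets for olfactory receptors had their mean. All 7 epithelial markers were detected, with a mean level over the list of 13.24 to 13.26 in PC9 and 13.12 in PC9/gef. Of 5 measured lung lineage markers, 4 were at background in both lines, NKX2-1 and NAPSA included. Of 9 measured leukocyte markers, 7 were at background in both lines, PTPRC and CD3E included, and the mean level of the list was 3.19 to 3.22 in PC9 and 3.17 to 3.26 in PC9/gef. Of the detected ones, ITGAM was higher in PC9/gef by 1.16 (adjusted p = 0.0430) and LYZ fell by 1.09 (adjusted p = 0.00103), opposite changes that offset each other in that mean. The same mean for 7 fibroblast markers was 3.21 to 3.27 and 3.30 to 3.31, with 6 at background in both lines, and the detected one, COL1A1, rose by 0.52 (adjusted p = 0.0380). The part of ITGAM, LYZ and COL1A1 in the results was not tested. In bulk RNA, fewer cells that express a gene and less RNA per cell cannot be told apart.

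The proteasome degrades proteins tagged with ubiquitin. Its 20S core is a barrel of stacked rings, with PSMA subunits in the outer rings and PSMB subunits in the inner rings, where PSMB5, PSMB6 and PSMB7 carry the catalytic sites. The 19S regulator caps the barrel, binds ubiquitin and unfolds the substrate with its ring of PSMC ATPases. In cells exposed to interferon-gamma, PSMB8, PSMB9 and PSMB10 take the places of PSMB5, PSMB6 and PSMB7 in newly built cores, and this immunoproteasome favours peptides that fit HLA class I molecules.

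All 36 genes were above background. Of these, 15 (41.7%) were higher in PC9/gef than in PC9, 4 (11.1%) were lower and 17 did not pass an adjusted p of 0.05 in limma. The number of lower genes was 2 when PC9 replicate 1, PC9 replicate 3 or PC9/gef replicate 3 was left out. The shares of all genes called in those fits are not given here. Over all genes tested, 14.4% were higher and 17.1% were lower. Among the 8100 genes whose mean lay in the range of the proteasome genes, 29.8% were higher and 27.8% lower. The median log2 change of the 36 genes was 0.10, against 0.01 over those 8100 genes, and 27 of the 36 changes were positive. The arrays of the lines did not overlap for 26 of the 36 genes (72.2%), close to the 72.1% of genes in the same range and above the 55.7% of all genes. PSMB9 rose and PSMD6 fell by more than 2-fold, a size reached by 2.88% of all genes and by 285 of the 8100 genes in that range. Most other changes were small. With a minimum change of 1.2-fold in the test, 3 genes were higher and 2 lower. In that test 4.94% and 4.72% of all genes, those at background included, were called.

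**Figure D1:**
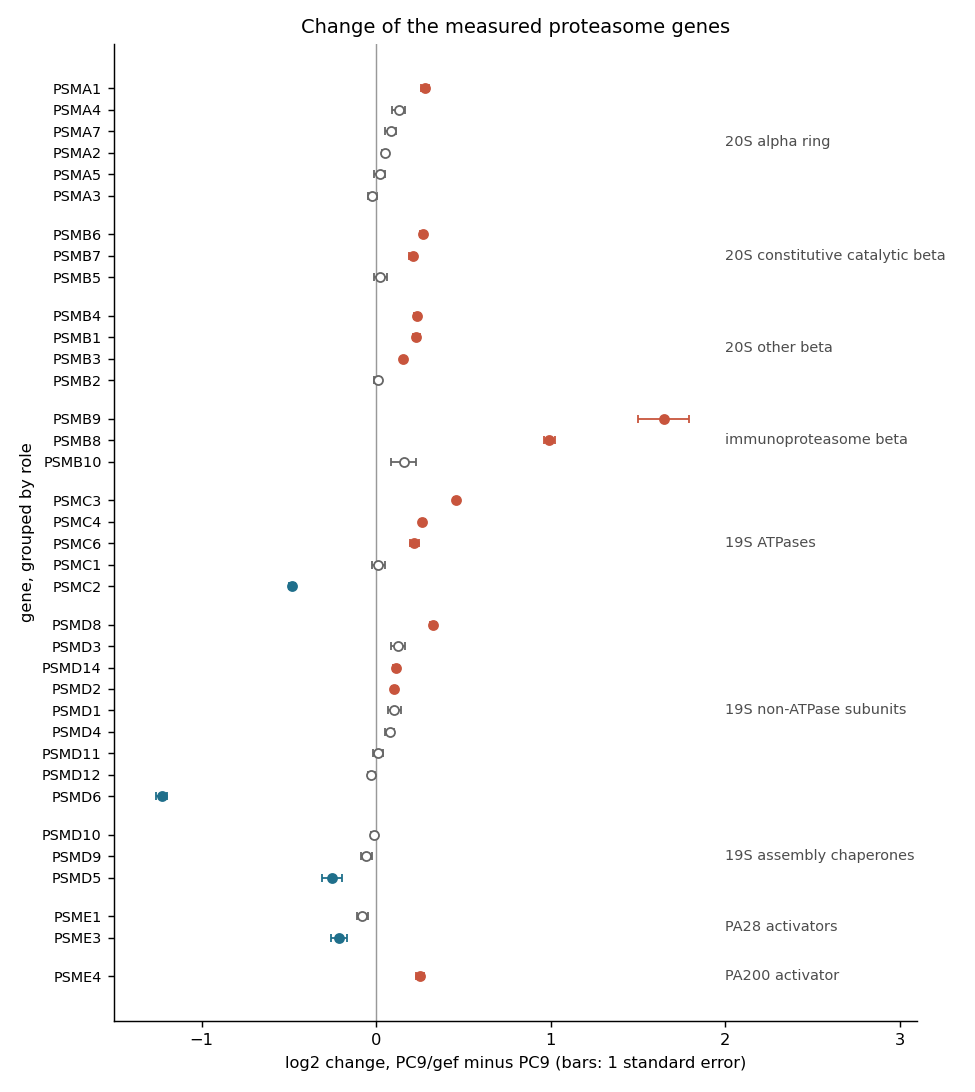
Log2 change (PC9/gef minus PC9, n = 3 arrays per line, bars 1 standard error) of the 36 measured proteasome genes, grouped by role. Filled red points were higher and filled blue points lower at an adjusted p of 0.05, and open points did not pass; PSMB9 at 1.65 and PSMD6 at -1.23 lie farthest from 0.

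PSMB9 and PSMB8, subunits of the immunoproteasome, had the largest rises among the proteasome genes, and PSMB10 did not pass the test. PSMB9, a catalytic subunit, measured 5.57, 5.14 and 5.55 in PC9 and 7.05, 7.18 and 6.98 in PC9/gef. Every PC9/gef array lay above every PC9 array, and the change was 1.65 on the log2 scale (SE 0.14, n = 3 per line, 3.13-fold, adjusted p = 0.00207). PSMB8, the chymotrypsin-like immuno-subunit, measured 9.60, 9.53 and 9.50 in PC9 and 10.56, 10.51 and 10.54 in PC9/gef. The groups lay far apart compared with their spread, and the log2 change was 0.99 (SE 0.03, 1.99-fold, adjusted p = 0.000157). PSMB10, the trypsin-like immuno-subunit, measured 8.27, 8.23 and 8.21 in PC9 and 8.41, 8.51 and 8.26 in PC9/gef. The groups overlapped through the third PC9/gef array, and the log2 change of 0.16 (SE 0.07) did not pass (adjusted p = 0.160). Without PC9/gef replicate 3 it was 0.22 with an adjusted p of 0.0450.

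The constitutive partners PSMB5 and PSMB6 changed less than their immuno-subunits PSMB8 and PSMB9. PSMB7 rose by 0.21, beside 0.16 for its immuno-subunit PSMB10, which did not pass. PSMB5, the partner of PSMB8, measured 12.33, 12.33 and 12.31 in PC9 and 12.31, 12.42 and 12.31 in PC9/gef. These groups overlapped, with a log2 change of 0.02 (SE 0.04, adjusted p = 0.615). PSMB6, the partner of PSMB9, went from 13.66, 13.63 and 13.67 in PC9 to 13.93, 13.91 and 13.91 in PC9/gef. Its groups were apart by 0.27 (SE 0.01, adjusted p = 0.000533). PSMB7, the partner of PSMB10, went from 14.06, 14.04 and 14.04 to 14.24, 14.30 and 14.24, a rise of 0.21 (SE 0.02, 1.16-fold, adjusted p = 0.00225).

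**Figure D2:**
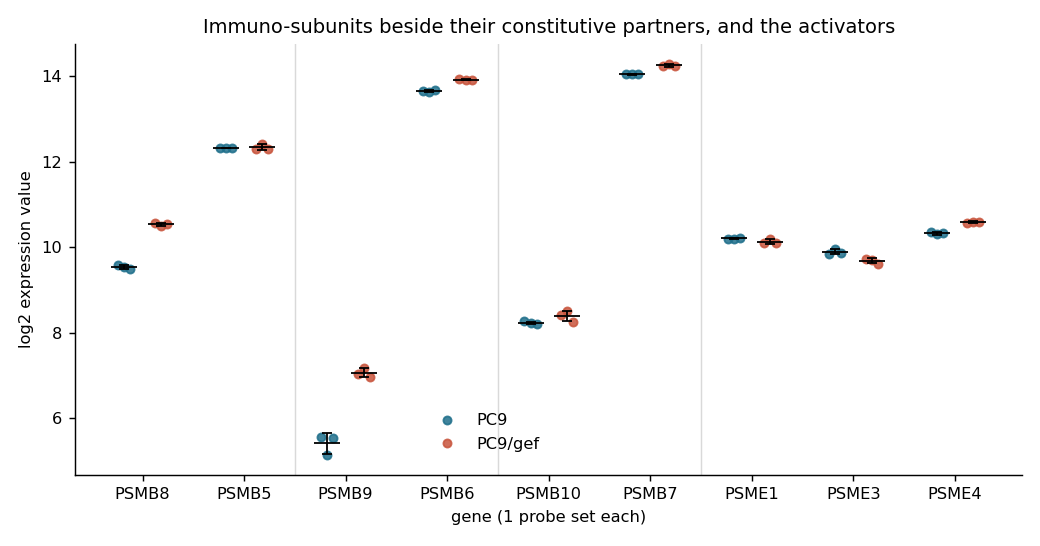
Log2 expression value of each array for the immuno-subunits, each beside its constitutive partner, and for the activators (3 arrays per line; lines are means and bars are SD). PSMB8 and PSMB9 are clearly higher in PC9/gef, whereas the PSMB5 and PSMB10 groups overlap; levels of different genes are not comparable, since each is read from another probe set.

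Each immuno-subunit was then set against its partner within an array, and the change of that log2 difference between the lines was tested for the 3 pairs. The difference itself holds no ratio of levels, since the probe sets differ. PSMB9 minus PSMB6 rose by 1.38 from PC9 to PC9/gef, and PSMB8 minus PSMB5 rose by 0.97. In both pairs all PC9/gef arrays lay above all PC9 arrays (exact two-sided permutation test, p = 0.1, 0.15 after adjustment over the 3 pairs). With 3 arrays against 3 the smallest p is 0.1, so no pair could pass the threshold. PSMB10 minus PSMB7 changed by -0.05 with overlapping groups (exact permutation p = 0.7, also 0.7 adjusted).

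**Figure D3:**
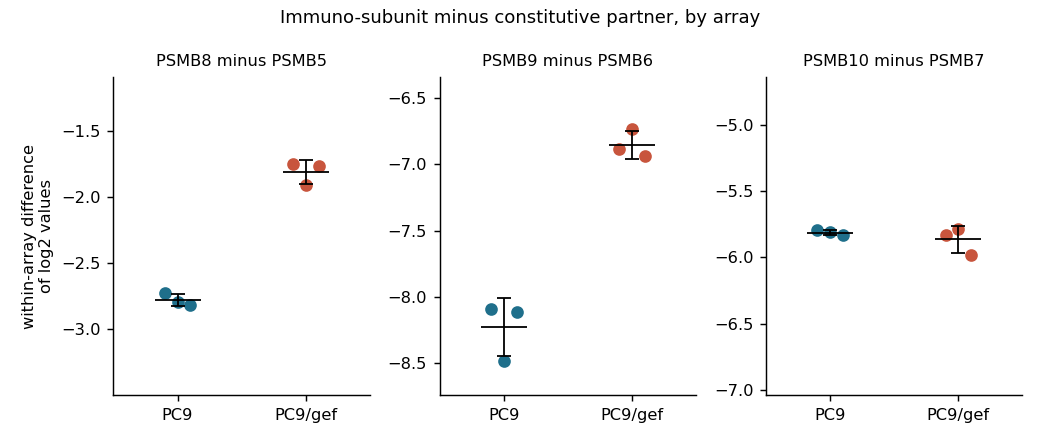
Within-array difference of the log2 values of an immuno-subunit and its constitutive partner, in 3 arrays per line (lines are means, bars are SD, and each panel spans the same range). The PC9/gef arrays lie 0.97 above PC9 for PSMB8 minus PSMB5 and 1.38 above for PSMB9 minus PSMB6, while those of PSMB10 minus PSMB7 overlap.

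Promoter windows of the proteasome genes were searched on both strands for GAAA followed, after NN, by a second GAAA, a core that interferon regulatory factors are known to bind. The windows ran from 250 bases before to 50 bases after a start site (RefSeq, GRCh38.p14), and 36 of the 41 named genes had one. The letters were found for 6 of these 36 genes, PSMA4, PSMB4, PSMB8, PSMB10, PSME1 and PSME2, and for 4.376% of all 27305 genes with a window (3.574% of windows). They were found for 2 of 12 genes that were higher in PC9/gef and for 3 of the 19 other measured genes with a window. The same 10 letters, GAAAGCGAAA on one strand or the other, were held by PSMB8, PSMB10, PSME1 and PSME2 and by the peptide transporter genes TAP1 and TAP2, which lie beside PSMB9 and PSMB8. The stretches of the 5 measured genes are shown because they carry the same letters while the genes differed in their change. Each is written on the strand of its gene, with the matching bases in capitals.
PSMB8, chr6:32844042-32844141, minus strand: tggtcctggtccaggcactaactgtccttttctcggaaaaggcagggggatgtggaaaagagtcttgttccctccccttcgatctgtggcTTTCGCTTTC
PSMB10, chr16:67936862-67936961, minus strand: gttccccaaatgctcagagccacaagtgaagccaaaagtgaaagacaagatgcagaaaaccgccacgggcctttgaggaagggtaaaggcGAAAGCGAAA
PSME1, chr14:24136109-24136208, plus strand: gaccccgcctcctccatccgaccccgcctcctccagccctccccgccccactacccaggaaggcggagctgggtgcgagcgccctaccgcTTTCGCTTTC
TAP1, chr6:32853823-32853928, minus strand: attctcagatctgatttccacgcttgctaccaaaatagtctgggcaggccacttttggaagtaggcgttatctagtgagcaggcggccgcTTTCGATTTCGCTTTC
TAP2, chr6:32838788-32838887, minus strand: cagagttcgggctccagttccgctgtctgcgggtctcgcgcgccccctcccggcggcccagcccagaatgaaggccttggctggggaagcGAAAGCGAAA
Counted from the start site, with the first transcribed base as 1 and no base 0, the match runs from -4 to 6 in PSMB8, from -21 to -12 in PSMB10 and from 6 to 15 in PSME1. It runs from -58 to -49 in TAP2, and in TAP1 a pair of overlapping matches runs from -134 to -119. The window of PSMB9 held no match, and the matches of TAP1, which is read in the opposite direction, end 354 and 360 bases from the start site of PSMB9. Of the 5 measured genes with these 10 letters, PSMB8 rose by 0.99, TAP1 by 0.82 and TAP2 by 0.44, whereas PSMB10 and PSME1 did not pass the test. The peptide loading genes B2M, TAPBP, ERAP1 and ERAP2 also held the searched core, with other letters at NN. B2M rose by 0.43 and ERAP1, at -0.125, passed as lower, whereas TAPBP (0.01) and ERAP2 (0.26) did not pass. A match is a run of letters and no measured binding site.

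Other letters were common among all promoters. TTCNNNGAA, the core of sites bound by STAT factors, was found for 7 of the 36 genes with a window and for 9.376% of all genes. The 7 include PSMB8, which rose, PSMB5, which did not pass, and PSME3, which was lower. These letters were found for 3 of the 12 higher genes and for 4 of the 19 others that were measured. TGANNNNGC is looser than the core of the antioxidant response element, to which NFE2L1 and NFE2L2 bind, so many matches are not that core. It was found for 24 of the 36 and for 47.068% of all genes. The TGANNNNGC letters were found for 9 of the 12 higher genes and for 11 of the 19 others that were measured. These searches could overlap in a window.

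The activators did not move as a group. PSME1, which encodes the alpha subunit of PA28, an interferon-inducible cap of the core, measured 10.20, 10.21 and 10.22 in PC9 and 10.10, 10.19 and 10.09 in PC9/gef. All PC9/gef arrays were lower, but the log2 change of -0.08 did not pass (SE 0.03, adjusted p = 0.117). Without PC9/gef replicate 2 it was -0.11 with an adjusted p of 0.00432. PSME3, the nuclear PA28 gamma, went from 9.85, 9.97 and 9.88 to 9.72, 9.71 and 9.62. The groups did not overlap, and the gene fell by 0.21 (SE 0.05, 1.16-fold, adjusted p = 0.0342). That call was lost whichever array was left out (adjusted p 0.0634 to 0.0861), and its probe set did not pass with adjustment over all probe sets (adjusted p = 0.0525). PSME4, the PA200 activator, went from 10.37, 10.30 and 10.33 to 10.56, 10.59 and 10.60, a rise of 0.25 (SE 0.02, 1.19-fold, adjusted p = 0.00194). Its call was lost when all its probe sets were averaged (log2 change 0.12, adjusted p = 0.146).

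In the 20S core without the immuno-subunits, 6 of 13 measured genes were higher and none was lower, with 12 positive changes and a median of 0.13. These are 46.2% higher and 0% lower, beside 29.8% and 27.8% of genes in the range of means of the proteasome genes and 14.4% and 17.1% of all genes. All were highly expressed, with line means between 12.32 and 14.26. The alpha ring forms the gated entry to the barrel, and there only PSMA1 of 6 genes passed. It went from 13.19, 13.20 and 13.17 in PC9 to 13.43, 13.50 and 13.47 in PC9/gef, a rise of 0.28 (SE 0.02, 1.21-fold, adjusted p = 0.00148). PSMA2, PSMA3, PSMA4, PSMA5 and PSMA7 ranged from -0.02 to 0.13 and did not pass. With all probe sets of a gene averaged, PSMA7 passed as higher (0.11, adjusted p = 0.00154) and PSMA2 as lower (-0.15, adjusted p = 0.00566). With the brightest probe set, PSMA4 passed without PC9/gef replicate 2 (log2 change 0.16, adjusted p = 0.0416) and PSMA2 without PC9/gef replicate 1 (0.07, adjusted p = 0.0470). The non-catalytic beta subunits PSMB1, PSMB3 and PSMB4 rose by 0.23, 0.15 and 0.23 (adjusted p = 0.00179, 0.000126 and 0.000957), and PSMB2 measured a change of 0.01. For PSMB3 the arrays were 13.25, 13.24 and 13.25 against 13.40, 13.40 and 13.39, a small shift with very little spread.

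The 19S regulator changed in both directions. Of its 17 measured genes, chaperones included, 6 were higher, 3 were lower and 8 did not pass, with a median of 0.08. The shares, 35.3% higher and 17.6% lower, stood beside 29.8% and 27.8% of genes in the range of means of the proteasome genes. PSMD6, a scaffold subunit of the regulator's lid, fell most of all the proteasome genes. It measured 12.19, 12.15 and 12.20 in PC9 and 10.94, 11.01 and 10.91 in PC9/gef. The lines stood apart by far more than their spread, and PSMD6 fell by 1.23 on the log2 scale (SE 0.03, n = 3 per line, 2.35-fold, adjusted p = 0.000108). Averaged with a second probe set at background, the change was -0.62. The ATPase gene PSMC2 went from 13.48, 13.44 and 13.49 to 12.99, 12.99 and 12.98. Its PC9/gef arrays were almost identical and all lower, and it fell by 0.48 (SE 0.02, 1.40-fold, adjusted p = 0.000177).

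The other ATPase genes did not fall with PSMC2. PSMC3 went from 11.78, 11.76 and 11.75 in PC9 to 12.23, 12.23 and 12.21 in PC9/gef, with no overlap. It rose by 0.46 (SE 0.01, 1.37-fold, adjusted p = 8.74e-05). PSMC4 rose by 0.26 (adjusted p = 0.000629) and PSMC6 by 0.22 (adjusted p = 0.00476), while PSMC1 measured 0.01 (adjusted p = 0.823). Subunits of one hexameric ring were thus higher, lower and not called in the same comparison.

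Of the 9 measured non-ATPase subunits, 3 (33.3%) were higher and PSMD6 alone (11.1%) was lower. The shares among genes in the range of means of the proteasome genes were 29.8% and 27.8%. PSMD8, a subunit of the lid, went from 12.82, 12.86 and 12.83 to 13.19, 13.15 and 13.14. All PC9/gef arrays were higher, and the rise was 0.32 (SE 0.02, 1.25-fold, adjusted p = 0.000675). PSMD2, a large scaffold of the base, rose by 0.10 (adjusted p = 0.00539), and PSMD14, the deubiquitinase of the lid, by 0.12 (adjusted p = 0.0111). Both were named after their values were seen. The others, PSMD1, PSMD3, PSMD4, PSMD11 and PSMD12, ranged from -0.03 to 0.12 and did not pass with all arrays. PSMD3 passed without PC9/gef replicate 3 (log2 change 0.16, adjusted p = 0.0387) and PSMD12 without PC9/gef replicate 1 (-0.05, adjusted p = 0.0399). PSMD4 passed with its probe sets averaged (0.05, adjusted p = 0.0204).

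PSMD5, PSMD9 and PSMD10 encode chaperones that help to assemble the base and leave the finished particle. PSMD5 measured 9.63, 9.53 and 9.67 in PC9 and 9.29, 9.43 and 9.34 in PC9/gef. The groups did not overlap, and PSMD5 fell by 0.25 (SE 0.05, 1.19-fold, adjusted p = 0.0311). Its call was lost without PC9 replicate 1 (adjusted p = 0.106), PC9 replicate 3 (0.0874), PC9/gef replicate 1 (0.0853) or PC9/gef replicate 3 (0.102). PSMD9 and PSMD10 measured -0.06 and -0.01 and did not pass.

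Several of the 36 genes were read by more than 1 probe set. Of the 68 probe sets, 20 (29.4%) were higher and 5 (7.35%) lower with adjustment over all probe sets, of which 7.61% were higher and 8.99% lower. These shares are not matched for brightness, since 29265 of all 54613 probe sets were at background in both lines but only 7 of the 68. Among genes in the range of means of the proteasome genes, 29.8% were higher and 27.8% lower. Those are calls of genes, each by its brightest probe set and adjusted over all genes, so they are no matched share either. Leaving out PC9/gef replicate 2 gave 11 lower probe sets among the 68, and the share of all probe sets called in that fit is not given here. No gene had probe sets called in opposite directions. Of 17 genes with several probe sets above background, the changes had 1 sign in 11 and both signs in 6. All 3 probe sets of PSMA1 rose, by 0.23 to 0.28. The brightest probe set of PSMC2 fell by 0.48 and another by 0.78, and the third measured -0.39 without passing (adjusted p = 0.0586). The probe sets of PSMA2 differed. Its brightest probe set measured 0.05 and did not pass, whereas a dimmer one went from 10.69, 10.66 and 10.72 in PC9 to 10.32, 10.40 and 10.31 in PC9/gef, and fell by 0.34 (adjusted p = 0.00384). PSMB8, PSMB9 and PSMB10 had 1 probe set each, so their values have no second reading on these arrays. That of PSMB8 is an _s_at probe set, so PSMB8 could not be read without such probe sets.

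**Figure D4:**
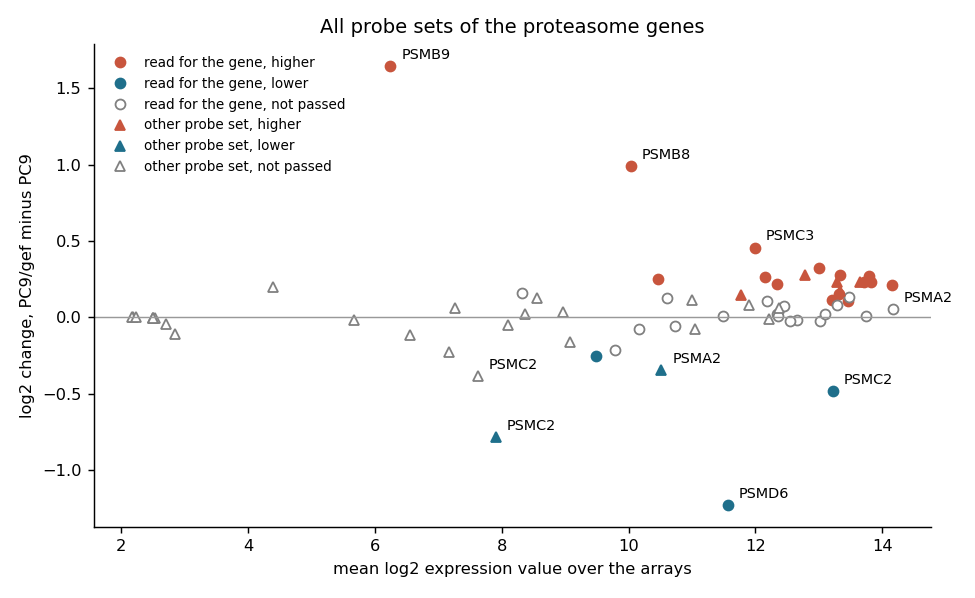
Mean log2 expression value over the 6 arrays (horizontal) against the log2 change between the lines (vertical) for all 68 probe sets of the proteasome genes. Circles were read for the gene and triangles are its other probe sets, filled where the adjusted p over all probe sets passed 0.05; the bright probe set of PSMA2 lies near 0 and its dimmer one at -0.34.

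The measured genes beside each proteasome gene were examined after these values had been seen, 10 on each side in RefSeq order. PSMD6 on chromosome 3 lay among genes that were lower in PC9/gef. All 20 neighbours had a negative change, 17 passed as lower and none as higher, and their median was -0.78. The adjacent genes ATXN7 and PRICKLE2 measured -1.22 and -1.95. Around PSMC2 on chromosome 7, 19 of 20 neighbours had a negative change and 14 passed as lower, with a median of -0.43. Around PSMC3 on chromosome 11, 19 of 20 had a positive change and 14 passed as higher, with a median of 0.31. Of the 11855 genes with a mean above background, 24% were higher and 22.4% lower. The part of these surroundings in the changes of PSMD6, PSMC2 and PSMC3 was not tested.

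PSMB8 and PSMB9 lie together on chromosome 6 with TAP1 and TAP2 and are among each other's neighbours. The median of their 20 neighbours was 0.05 and 0.11, against their own changes of 0.99 and 1.65. Of these neighbours 6 were higher and 1 lower for PSMB8, and 7 higher and 2 lower for PSMB9. Among all genes with a mean above background, 24% were higher and 22.4% lower. The genes adjacent to PSMB8, TAP2 and TAP1, rose by 0.44 and 0.82, whereas HLA-DMB, on the other side of PSMB9 from TAP1, measured -0.10 and did not pass. PSMD2 rose by 0.10 among neighbours with a median of -0.34, of which 12 were lower. Over the 36 genes, a gene's change and the median of its neighbours had a Pearson r of 0.585 and a Spearman rho of 0.291, given as a description, since these points come from the same 6 arrays and some neighbours are shared. Without PSMD6 r was 0.329, and without PSMD6 and PSMC2 it was 0.192, so the relation rested largely on those genes.

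**Figure D5:**
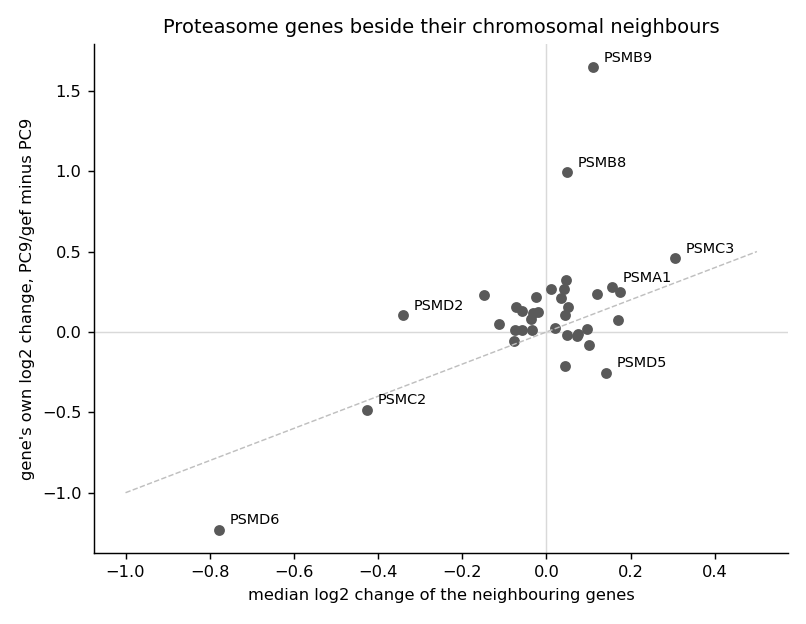
Median log2 change of the 20 nearest measured genes (horizontal) against the gene's own log2 change (vertical, PC9/gef minus PC9) for the 36 proteasome genes; the dashed line marks equal values. PSMD6, PSMC2 and PSMC3 lie on the side of their neighbours, and PSMB8 and PSMB9 lie far above theirs.

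Other genes that serve the proteasome were examined in 7 lists, with 16 genes higher and 12 lower in all (10 higher when PC9/gef replicate 1 was left out). Of the 47 genes measured, 34% were higher and 25.5% lower, near the 29.8% and 27.8% of genes in the range of means of the proteasome genes. Some of the 47, PSMA8, DDI1 and IFNG among them, lay below that range. Over all genes, 14.4% were higher and 17.1% lower. The assembly chaperones of the core had 3 higher (50%) and 1 lower (16.7%) of 6, with a median of 0.08. PSMG4, PSMG3 and POMP rose by 0.14, 0.12 and 0.11 (adjusted p = 0.0288, 0.0366 and 0.0270). These small calls did not hold throughout. PSMG4 was lost when any PC9 array or the third PC9/gef array was left out, and PSMG3 when any PC9 array or the first PC9/gef array was. POMP was lost with each array left out other than PC9 replicate 2. The adjusted p in those fits lay between 0.0587 and 0.0979. POMP also measured -0.01 when its probe sets were averaged.

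Of 8 further subunits and bound proteins, 2 (25%) were higher and 4 (50%) lower. In the range of means of the proteasome genes, 29.8% of genes were higher and 27.8% lower, and over all genes 14.4% and 17.1%. ADRM1, a ubiquitin receptor of the 19S regulator, went from 10.44, 10.42 and 10.51 to 10.00, 10.00 and 9.96. The groups were well separated, and ADRM1 fell by 0.47 (SE 0.03, 1.38-fold, adjusted p = 0.000724). SEM1, a small subunit of the lid, fell by 0.22 (adjusted p = 0.0122), a call lost without PC9 replicate 2 (adjusted p = 0.0519). ECPAS, a proteasome adaptor, rose by 0.28 (adjusted p = 0.0124), a call lost without PC9/gef replicate 1 or 3 (0.0513 and 0.0506). Among 5 shuttle receptors, UBQLN4 alone passed and rose by 0.16 (adjusted p = 0.00643). Among 3 genes for ubiquitin and its E1 enzymes, UBB rose by 0.10 (adjusted p = 0.0169), a call lost without PC9/gef replicate 1 or 3 (0.0541 and 0.0651).

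NFE2L1 is a transcription factor that raises proteasome genes when proteasome activity is short. Its own gene measured -0.09 and did not pass (adjusted p = 0.109), but passed as lower without PC9/gef replicate 2 (-0.12, adjusted p = 0.0242) and with its probe sets averaged (-0.19, adjusted p = 0.0140). Of the 6 measured genes of this route, 2 (33.3%) were higher and 2 (33.3%) lower. These shares stood beside 29.8% and 27.8% of genes in the range of means of the proteasome genes. NGLY1, the glycanase that processes NFE2L1, went from 8.80, 8.82 and 8.72 to 8.27, 8.23 and 8.21. It fell by 0.55 (SE 0.04, 1.46-fold, adjusted p = 0.000907). This rests on an _s_at probe set, and without such probe sets NGLY1 measured -0.03 (adjusted p = 0.431), with an average over its probe sets of -0.29. MAFF, a small MAF partner, rose by 0.20 (adjusted p = 0.000372). VCP, the ATPase that extracts NFE2L1 from the endoplasmic reticulum, rose by 0.16 (adjusted p = 0.0262), a call lost without PC9 replicate 2 or 3 or any PC9/gef array but replicate 2 (adjusted p 0.0586 to 0.0825).

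Of 9 measured genes on the route from interferon to the immunoproteasome, 4 (44.4%) were higher and 1 (11.1%) was lower. Among genes in the range of means of the proteasome genes, 29.8% were higher and 27.8% lower. Some of the 9, IFNG, IRF1 and IRF9 among them, lay below that range. Over all genes, 14.4% were higher and 17.1% lower. NLRC5, which activates transcription of HLA class I, went from 4.87, 4.76 and 4.93 in PC9 to 7.23, 7.11 and 7.31 in PC9/gef. It rose by 2.36 (SE 0.07, 5.15-fold, adjusted p = 0.000153), more than any proteasome gene. IRF9, part of the factor downstream of type I interferon, rose by 0.65 (1.56-fold, adjusted p = 0.0022), and the kinase gene JAK1 by 0.41 (adjusted p = 0.00121). IFNG itself was at background in both lines. IRF1, the factor best known for inducing PSMB9, measured 5.48, 5.65 and 5.49 in PC9 and 5.39, 5.44 and 5.49 in PC9/gef. These arrays overlapped, and the change of -0.10 did not pass (adjusted p = 0.238).

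Of 10 genes for partners that load peptides on HLA class I, 3 (30%) were higher and 4 (40%) lower. The shares among genes in the range of means of the proteasome genes were 29.8% and 27.8%, and over all genes 14.4% and 17.1%. TAP1 and TAP2, which together form the peptide transporter, rose by 0.82 (1.77-fold, adjusted p = 0.00508) and 0.44 (1.36-fold, adjusted p = 0.00748). Averaged over its probe sets TAP2 measured 0.081, and its call was lost with a minimum change of 1.2-fold (adjusted p = 0.140). TAP1 measured 7.19, 6.85 and 7.10 in PC9 and 7.83, 7.88 and 7.89 in PC9/gef. PDIA3, a thiol oxidoreductase of the loading complex, fell by 0.52 (1.43-fold, adjusted p = 0.000153). CALR, the chaperone calreticulin, fell by 0.42 and B2M, the light chain of HLA class I, rose by 0.43 (adjusted p = 0.0016 and 0.000359), both named after their values were seen. Without _x_at and _s_at probe sets neither passed, with B2M at 0.10 (adjusted p = 0.283) and CALR at -0.45 (adjusted p = 0.0707).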

How the data were processed

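Total RNA of 3 PC9 and 3 PC9/gef samples was hybridised to Affymetrix arrays, 1 sample per array. The authors deposited log2 values per probe set. Their supplementary methods name GC-RMA in GeneSpring GX and the submitters' notes name RMA, with no version given in the sources used here. Each column holds the same set of sorted values, so the deposited values were already quantile-normalized and were used as they are. Such values can hide a shift common to all genes and compress the change of dim genes.

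Of 54675 probe sets, 62 controls were left out. By the platform annotation 41091 name 1 gene, 1801 several and 11721 none. A gene was read from its brightest probe set (highest mean over the 6 arrays). The lines were compared with limma 3.58.1 in R 4.3.3 (lmFit, eBayes), with Benjamini-Hochberg adjustment over all 19775 genes, or over all probe sets where these are counted, at 0.05. The fit was tested on simulated data. The array number limits precision, and p-values measure the spread between these samples only. Arrays of a line correlated at 0.999 or more, and those of different lines at 0.994 or less.

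Alternatives were quantile normalization, median centring, trended robust moderation, a background filter, a replicate block, leaving out each array, averaged probe sets, leaving out _x_at and _s_at probe sets, and a minimum change of 1.2-fold. The text names every immuno-subunit, its partner and the activators, the other proteasome genes that passed with the strongest changes (up to 8 upward and 8 downward), those over 1.5-fold, those with probe sets called in opposite directions, and up to 3 passed genes of each pathway list with the largest change. Members, gene lists and tests were chosen with earlier results of these data known. The promoter and neighbour searches were added later. The neighbour order is that of RefSeq, and no array coordinates are given. Genes that share sequence with a copy may share probes.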

Additional observations from a re-analysis of the deposited data

How the results depend on the processing

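All arrays hold the same sorted values, so quantile normalization could not move the counts and is no check of them, and median centring moved none for want of a shift to remove. With a minimum change of 1.2-fold, proteasome genes higher and lower numbered 3 and 2, their probe sets 3 and 3, and pathway genes 5 and 4. PSMB6 (0.27), PSMB7 (0.21), PSME3 (-0.21) and PSME4 (0.25) then did not pass. Trended robust moderation called 10 probe sets lower, and the background filter 8. Shares over all genes or probe sets are given here only for the main fit and, for genes, the 1.2-fold minimum. Whether the counts in the other settings moved more than those of all genes or probe sets was not tested. With averaged probe sets 1 gene exceeded 2-fold, PSMB7 (0.081) and PSME4 (0.12) did not pass, PSMB10 minus PSMB7 was 0.076 and POMP reversed to -0.014. The second probe set of PSMB7 measured 2.72 in PC9 and 2.68 in PC9/gef, near the background of 2.65. Averaging also moved ECPAS to 0.15, UBQLN4 to 0.088, JAK1 to 0.15, PDIA3 to -0.33, PSMD5 to -0.13, PSMG4 to 0.025, PSMB4 to 0.16 and, without its call, VCP to 0.031. PSMA4 passed with trended robust moderation (adjusted p = 0.0338), the background filter (0.0379) and the replicate block (0.0343). Without _x_at and _s_at probe sets, 11 probe sets were higher, 3 lower and 8 pathway genes higher. PSMG4 (-0.0036), POMP (-0.14) and VCP (-0.10) reversed, since other, dimmer probe sets were read. PSMB1 then measured -0.00016 from a probe set at background in both lines, whereas its second bright probe set, an _s_at one, rose by 0.23. Some genes, PSMB8, PSMC3 and TAP1 among them, had only an _s_at probe set and so no value in this setting. Without 1 array at a time, 15 to 17 proteasome genes were higher and 2 to 4 lower, 2 to 3 exceeded 2-fold, 18 to 20 probe sets were higher and 4 to 11 lower (11 without PC9/gef replicate 2), and 10 to 16 pathway genes were higher and 8 to 13 lower. PSMB10 ranged from 0.10 to 0.22, PSME1 from -0.11 to -0.062 and PSME3 from -0.24 to -0.18. The causes were not tested, beyond the probe sets just named.

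Arrays with the same replicate number did not deviate together (correlation of deviations -0.03, 0.02 and 0.05), so the numbers do not pair the samples. With the replicate block 2 proteasome genes were lower, 10 pathway genes were higher, and PSME3 (-0.21, adjusted p = 0.0940), PSMD5, PSMD14, PSMG4, POMP, ECPAS, VCP and UBB did not pass. Signal over background limited dim probe sets, and 7 of the 68 were at background in both lines.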
